A study of Rattus norvegicus with 8 samples.

Results

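Marker genes of the choroid plexus and of the pituitary, 2 tissues near the hypothalamus, were read in hypothalamic RNA. The RNA came from 8 adult male Long-Evans rats and was sequenced by Whole Transcriptome Termini Site Sequencing (WTTS-Seq). In this method a read marks the 3′ end of a polyadenylated RNA, and reads were not counted as single molecules. The 10 genes were chosen by tissue, with earlier results of these data known. They were Ttr, Clic6, Kl, Folr1, Enpp2, Prlr and Slc4a5 for the choroid plexus and Prl, Gh1 and Cga for the pituitary. Every row with one of these symbols was taken. Rows were found for 7 of the 10 genes, with 22 of the 98356 sites and 7 of the 18003 gene symbols in the files. None of the rows carried the symbols Kl, Prl or Gh1. The lowest total of any row was 16 reads over the 8 libraries, and 64313 of the 98356 sites carried a gene symbol, so reads of these genes at sites below that total or without a symbol would not be seen here.

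The cannabis-exposed rats (n = 4, replicates 1, 2, 3 and 5) inhaled vaporized cannabis plant matter for 10 min, and the air-treated controls (n = 4, replicates 1 to 4) sat in a like chamber whose vaporizer held no plant matter. Food was removed and tissue was taken 1 hr after exposure. The hypothalamus was dissected from frozen whole brain, and the series record describes the tissue as mediobasal hypothalamus, the part that lies above the median eminence and the pituitary stalk. In such bulk RNA, fewer cells of a type and less RNA per cell cannot be told apart.

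The choroid plexus is the epithelium in the brain ventricles that secretes cerebrospinal fluid and passes hormones, vitamins and ions into it. The third ventricle, whose lower walls are hypothalamic, carries choroid plexus in its roof. The anterior pituitary makes peptide hormones in separate cell types, and its pars tuberalis is a thin sheet of cells that wraps the stalk and the median eminence and contains thyrotropes under the control of melatonin. Lactotropes and somatotropes, which make prolactin and growth hormone, are the most common cells of the main lobe, the pars distalis.

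The files hold normalized counts per site, which are reads scaled by 1 factor per library, and the value of a gene is the sum over its sites. Since a read marks 1 end, no value was scaled by transcript length. Each library is labelled as a separate replicate, and nothing in the labels ties libraries to litters or batches. The libraries held from 1159811 to 3706778 reads on sites. Air control 4 and cannabis 1 stood apart from the other 6 libraries on the leading component of all gene totals with a mean of at least 20 (scores of 0.696 and 0.463, against -0.429 to -0.096, for 40.0% of the variance). They had the fewest reads, 1159811 and 1919709, but air control 2, with 1941129 reads, was close to cannabis 1. In air control 4 and cannabis 1, 26.1% and 17.0% of the sites were without a read, against 3.32% to 10.3% in the others. Among the marker genes of the hypothalamus itself, 18 of 19 had rows, among them Avp, Oxt, Pmch, Hcrt, Trh and Agrp. The gene without a row was Npy, so a marker of the dissected tissue itself can lack a row.

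Cga was the most abundant of the 7 genes. It encodes the alpha subunit shared by thyroid-stimulating hormone, luteinizing hormone and follicle-stimulating hormone. Its total, read from a single site, was 346, 688, 101 and 381 normalized counts in air controls 1 to 4 and 196, 450, 182 and 619 in cannabis 1, 2, 3 and 5. The lowest and the highest library were both air-treated controls, and the groups overlapped over nearly their whole range. The mean over the 8 libraries was 370 ± 210 (SD, n = 8), the 906th highest of the 18003 gene symbols. Thus the pituitary gene with the highest level varied 6.83-fold between libraries in normalized counts. The lowest, air control 3, rests on 150 reads and the highest, air control 2, on 575 reads. Counting error was small beside this range, since the exact Poisson 95% interval ran from 85.2 to 118 normalized counts in air control 3 and from 633 to 747 in air control 2.

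The spread of Cga was wide beside that of most genes. Its coefficient of variation was 56.7% over the 8 libraries, 63.6% within the controls and 58.3% within the cannabis-exposed rats, where counting error alone would give 5.31%. Of the 9626 gene symbols with a mean of at least 20 normalized counts, 4.58% had a larger coefficient of variation, and the median was 27.9%. The coefficient was 58.8% without air control 4 and cannabis 1.

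**Figure D1:**
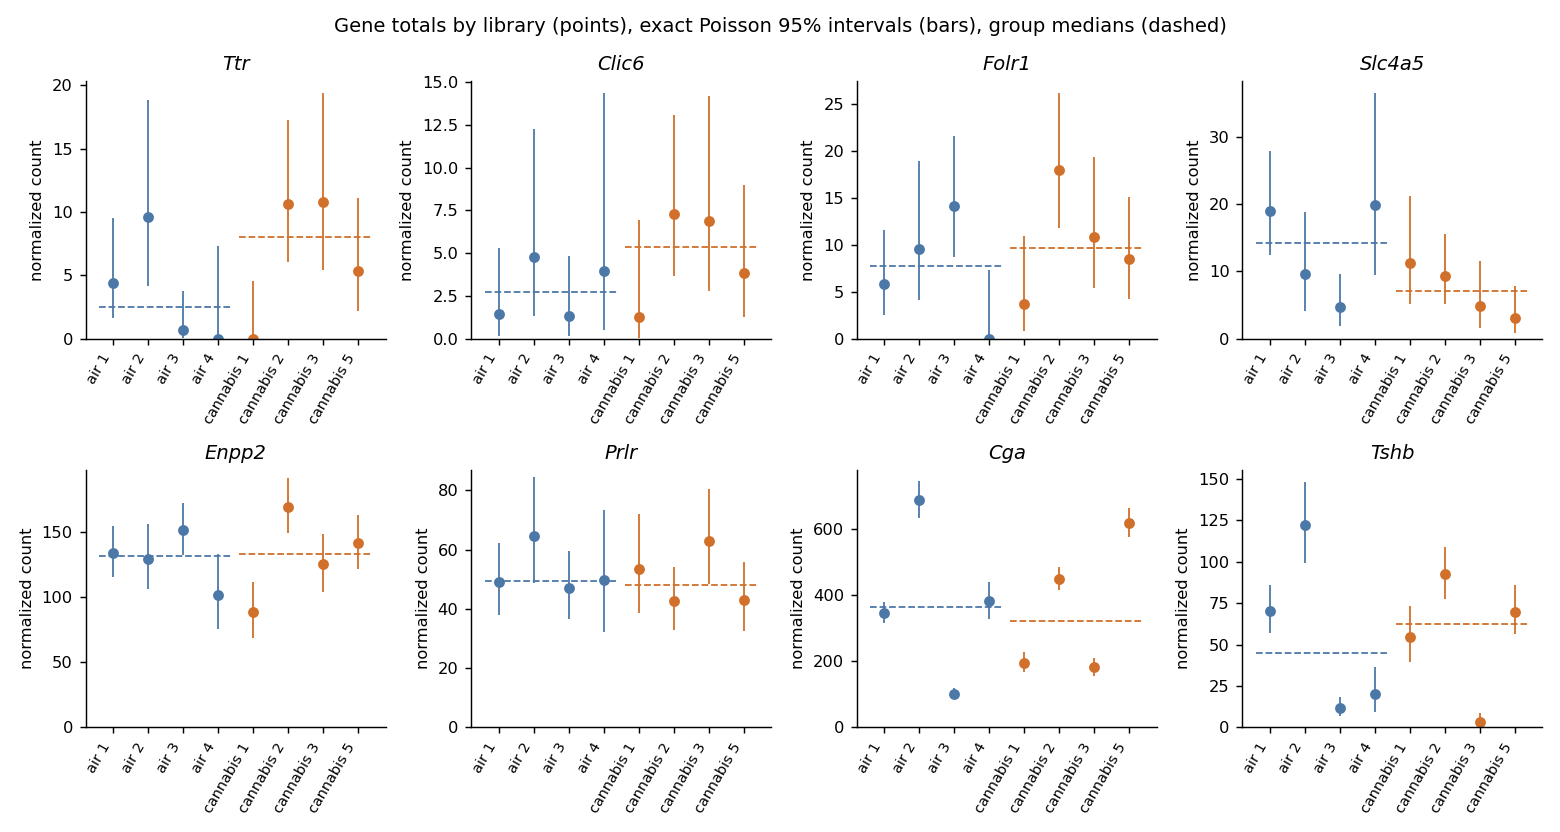
Normalized counts (vertical axes, from 0) of 7 choroid plexus and pituitary genes and of Tshb in each of the 8 libraries, with exact Poisson 95% intervals as bars and group medians as dashed lines. Cga ran from 101 to 688 with short bars, whereas Ttr, Clic6 and Folr1 stayed under 18 with bars that overlap between most libraries.

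The other pituitary hormone genes were read from a list of 20 anterior pituitary genes, of which 13 had rows. Tshb, the beta subunit that pairs with the product of Cga to form thyroid-stimulating hormone, was at 70.2, 122, 11.4 and 19.9 normalized counts in air controls 1 to 4 and at 54.6, 92.3, 2.95 and 69.9 in cannabis 1, 2, 3 and 5. Its highest value was in air control 2, the library that was also highest in Cga, and its lowest values were in cannabis 3 and air control 3, which were lowest in Cga. Of the beta subunits of the gonadotropins, Lhb was between 9.40 and 19.0 and Fshb between 0 and 3.94 normalized counts. Lhb was below Tshb in 7 of 8 libraries, narrowly in air control 3 (9.40 against 11.4), and above it in cannabis 3 (10.8 against 2.95). Pou1f1, the transcription factor of lactotropes, somatotropes and thyrotropes, was at 0 to 4.70 normalized counts, and the pituitary homeobox gene Pitx1 at 0 to 13.9. No row carried the symbols Lhx3, Tbx19 or Ghrhr, and rows for Pcsk1, Neurod4 and Gpha2 were likewise absent. The most abundant genes of that list were Chga (290.5 normalized counts), a granin of neurons and endocrine cells alike, and Dlk1 (81.7).

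Over the 8 libraries, Cga and Tshb had a Pearson r of 0.717 (exact permutation test, two-sided, P = 0.0446, n = 8) and a Spearman rho of 0.810 (exact permutation test, P = 0.0218, n = 8) on log2(normalized count + 1). After Benjamini-Hochberg adjustment over the 22 pairs of genes compared, the exact permutation P was 0.317 for r and 0.202 for rho. Without air control 3 and cannabis 3, the libraries farthest from the median of Cga, r was 0.422, so the relation rests on these libraries. Within the controls r was 0.832 and within the cannabis-exposed rats 0.675, each over 4 libraries. When air control 4 and cannabis 1 were left out, r was 0.83 over 6 libraries. The proportion of both genes was not the same in all libraries. Tshb made up 21.8% of the summed Tshb and Cga reads in cannabis 1 (exact binomial 95% interval 16.3 to 28.1) and 1.60% in cannabis 3 (0.330 to 4.59), although Cga was at 196 and 182 normalized counts in these libraries. In air control 4 it was 4.95% (2.40 to 8.92), below the 16.9% of air control 1 (13.9 to 20.2) at a similar level of Cga. These intervals cover counting error only. As reads were not counted as single molecules, they and the other counting errors given here may be too small.

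**Figure D2:**
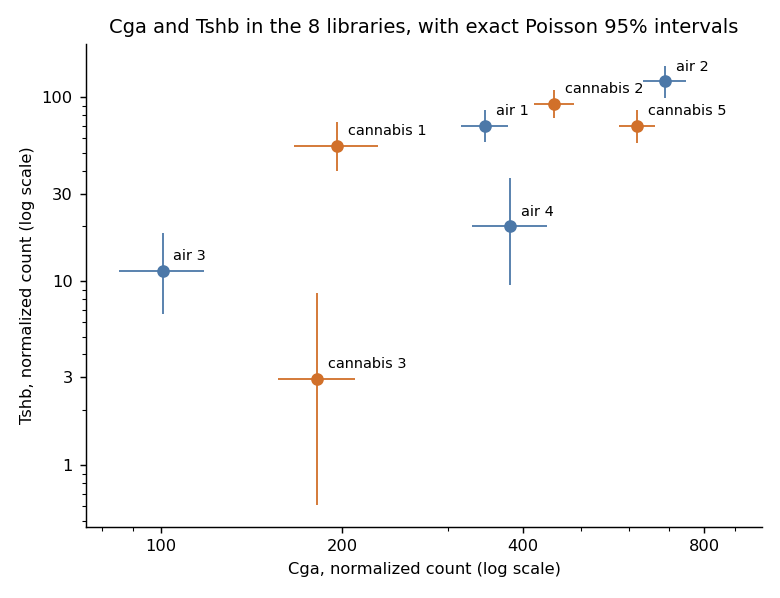
Tshb (vertical axis) against Cga (horizontal axis), both in normalized counts on log scales, with exact Poisson 95% intervals, air-treated controls in blue and cannabis-exposed rats in orange. Air control 2 is highest in both genes, and cannabis 3 lies far below cannabis 1 in Tshb (2.95 against 54.6) at nearly the same Cga.

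The sequences upstream of these genes are shown because Cga and Tshb are made in the same pituitary cell type, the thyrotrope, and both were lowest in air control 3 and cannabis 3. Both come from the RefSeq promoter table of the assembly GRCr8, not the build of the deposited files, and hold the 250 bases before the annotated start, 5′ to 3′ on the strand of the gene. Cga lies at chr5:54283090-54283339 on the plus strand and Tshb at chr2:192918055-192918304 on the minus strand. Capitals mark GATAAG, the letters bound by GATA factors, and TATAAA, the TATA box letters, both searched on both strands, with no overlap between them in these sequences.
Cga: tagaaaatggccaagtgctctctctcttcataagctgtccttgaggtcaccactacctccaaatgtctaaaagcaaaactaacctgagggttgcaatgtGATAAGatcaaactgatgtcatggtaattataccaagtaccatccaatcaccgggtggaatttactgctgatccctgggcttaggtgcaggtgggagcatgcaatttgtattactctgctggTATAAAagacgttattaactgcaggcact
Tshb: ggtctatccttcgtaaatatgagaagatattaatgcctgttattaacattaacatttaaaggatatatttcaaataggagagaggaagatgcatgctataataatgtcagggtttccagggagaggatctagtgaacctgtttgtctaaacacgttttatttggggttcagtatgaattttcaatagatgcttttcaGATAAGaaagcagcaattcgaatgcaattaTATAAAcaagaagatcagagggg
In Cga, GATAAG begins 151 and TATAAA 29 bases before the start, and in Tshb they begin 53 and 23 bases before it. Of 33469 rat promoter windows of this length, 6.18% held GATAAG, 12.9% held TATAAA and 1.02% held both. A match of letters is a description of the sequence and was not tested for binding.

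Among all 9611 other gene symbols with a mean of at least 20 normalized counts and a read in every library, the 5 whose levels were most like Cga across the 8 libraries were Armc5 (Pearson r = 0.932), Acy1 (0.901), Rbm10 (0.891), Adprhl2 (0.884) and Tubgcp2 (0.873). These values describe likeness over 8 points taken from many genes. The range of these genes was far narrower than that of Cga, as Armc5 ran from 41.6 to 76.0 and Acy1 from 21.5 to 42.2 normalized counts. None is a pituitary hormone gene.

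The choroid plexus genes were present at low levels apart from Enpp2 and Prlr. The order of the 7 genes by mean was Cga (370 ± 210), Enpp2 (130 ± 26.0), Prlr (51.5 ± 8.37), Slc4a5 (10.2 ± 6.35), Folr1 (8.81 ± 5.71), Ttr (5.18 ± 4.71) and Clic6 (3.86 ± 2.42) normalized counts (SD, n = 8 for each). Cga exceeded Enpp2 in 7 of 8 libraries, and Enpp2 exceeded Prlr and Prlr exceeded Slc4a5 in 8 of 8. Slc4a5 was above Folr1 in 3 libraries and below it in 4, and Ttr was above Clic6 in 5 and below it in 3, so these neighbours did not differ beyond their spread. Folr1 was above Ttr in 5 libraries and below it in 0, with the same number of reads in the others. Enpp2 and Prlr together made up 86.6% of the summed mean level of the 6 choroid plexus genes.

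Ttr encodes transthyretin, the carrier of thyroid hormone and retinol-binding protein that choroid plexus epithelium secretes in great amount. It was at 4.39, 9.58, 0.671 and 0 normalized counts in air controls 1 to 4 and at 0, 10.6, 10.8 and 5.38 in cannabis 1, 2, 3 and 5. That is at most 16 reads in a library and 49 reads in all, and 20.6% of gene symbols had a lower mean. The libraries without a Ttr read were air control 4 and cannabis 1, the same libraries that stood apart on the leading component. At their depth, 0 reads allow up to 7.33 and 4.58 normalized counts, the upper ends of exact Poisson 95% intervals. The interval of air control 1 ran from 1.61 to 9.55, so neither library was distinguished from air control 1. The interval of air control 4 overlapped that of every other library. The interval of cannabis 1 lay below those of cannabis 2 (6.08 to 17.3) and cannabis 3 (5.40 to 19.4). Clic6, a chloride intracellular channel protein of the choroid plexus, was at 1.24 to 7.31 normalized counts, with 1 to 11 reads per library.

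Folr1, the folate receptor alpha that carries folate into cerebrospinal fluid, was at 5.85, 9.58, 14.1 and 0 normalized counts in air controls 1 to 4 and at 3.73, 17.9, 10.8 and 8.45 in cannabis 1, 2, 3 and 5. Its lowest values were again in air control 4 and cannabis 1. Slc4a5, a sodium bicarbonate cotransporter of the ventricular face of the epithelium, was at 19.0, 9.58, 4.70 and 19.9 normalized counts in the controls and at 11.2, 9.30, 4.92 and 3.07 in cannabis 1, 2, 3 and 5, with at most 26 reads. Its highest value was in air control 4, where Ttr and Folr1 were without reads.

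Enpp2 encodes autotaxin, a secreted lysophospholipase D that is made by the choroid plexus and also by oligodendrocytes. Its total was 134, 129, 151 and 101 normalized counts in air controls 1 to 4 and 88.2, 169, 125 and 141 in cannabis 1, 2, 3 and 5. Air control 4 and cannabis 1 were the lowest of their groups, and the other 6 libraries lay between 125 and 169. The 12 oligodendrocyte markers all had rows, and their summed level was 41966 to 56335 normalized counts in controls and 34784 to 51525 in cannabis-exposed rats, led by Mbp (35560 normalized counts), the myelin basic protein. The part of these cells in the Enpp2 level was not tested. Prlr, the prolactin receptor, is found in choroid plexus and in hypothalamic neurons that respond to prolactin. It was at 49.0, 64.6, 47.0 and 49.6 normalized counts in the controls and at 53.4, 42.5, 63.0 and 43.0 in cannabis 1, 2, 3 and 5. With a coefficient of variation of 16.3%, against 14.3% from counting error, Prlr was the most even of the 7 genes, and 87.5% of the gene symbols with a mean of at least 20 varied more.

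A list of 32 further choroid plexus symbols held genes of high and low level. Rows were found for 24 of them, counting RGD1305645, the older symbol of Ecrg4, and 9 of the 24 had a mean above 20 normalized counts. The genes without rows included Otx2, Aqp1, Cldn2, Sostdc1 and Steap1. Kcnj13, the potassium channel of the choroid plexus, had 6.14 to 11.9 normalized counts, Kcne2 had 0 to 12.4 and Tmem72 had 0 to 4.39. The genes of the list with the highest means were Trpm3 (347 normalized counts), a cation channel that neurons also express, and Slc4a2 (164), an anion exchanger of many cells. Slc4a2 and Slc13a4 were high in the libraries where Ttr, Folr1 and Enpp2 were low. Slc4a2 was at 328 in air control 4 and 263 in cannabis 1, against 79.9 to 174 in the other 6 libraries, and Slc13a4, a sulfate transporter, at 211 and 165 against 84.6 to 123. Igf2, insulin-like growth factor 2 of choroid plexus and meninges, was at 63.6 and 80.7 against 128 to 212. These genes were chosen from the list after their values were seen. Tjp3, a tight junction protein, had 113 normalized counts in air control 4 and 7.31 to 19.3 elsewhere.

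**Figure D3:**
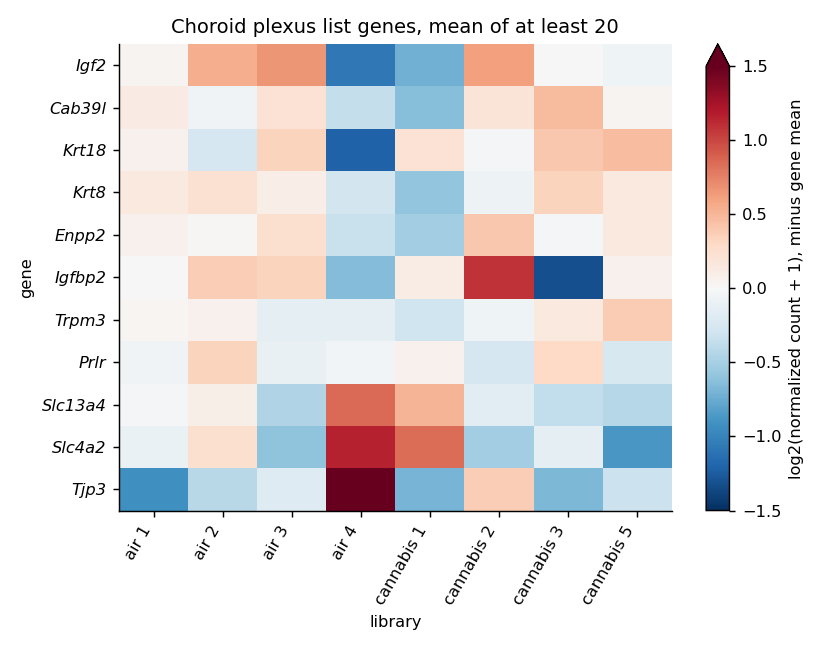
Deviation of log2(normalized count + 1) from the mean of the gene (colour) for the 11 choroid plexus genes, members or list, with a mean of at least 20 normalized counts (rows, ordered by air control 4 plus cannabis 1), in the 8 libraries (columns). Igf2, Cab39l and Enpp2 are low and Slc13a4 and Slc4a2 high in air control 4 and cannabis 1, and the value of Tjp3 in air control 4 (2.86) exceeds the colour scale.

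Across the 8 libraries the choroid plexus genes did not rise and fall as 1 group. Of their 15 pairs, 9 had a Pearson r above 0, and r ranged from -0.632 for Folr1 and Slc4a5 to 0.753 for Folr1 and Enpp2. The pair Folr1 and Enpp2 had an exact permutation P of 0.0292 for r and 0.0368 for a Spearman rho of 0.762 (n = 8), and r was 0.702 without air control 4 and cannabis 1. For Ttr and Folr1, r was 0.674 and rho 0.707 (exact permutation test, P = 0.0375 and 0.0595, n = 8). It was -0.0020 without these libraries, so that relation rests on them. For Ttr and Clic6, with 49 and 34 reads in all, r was 0.681 and rho 0.790 (exact permutation test, P = 0.0672 and 0.0254, n = 8). Their r was 0.870 without the same libraries, 0.181 within the controls and 0.986 within the cannabis-exposed rats. Enpp2 and Prlr, the genes with the most reads, had r = -0.415 and rho = -0.762 (exact permutation test, P = 0.307 and 0.0368, n = 8). No pair had a lower adjusted P in the exact permutation tests than Cga and Tshb (0.317 for r and 0.202 for rho). Folr1 and Enpp2, and Ttr and Clic6, had the same adjusted values. Cga had r between -0.108 and 0.478 with the 6 choroid plexus genes. The 5 gene symbols most like Ttr were Gng10 (r = 0.977), Nfib (0.970), Ptprd (0.969), Sparcl1 (0.967) and MGC94335 (0.958) among 9612. Sparcl1, an astrocyte protein, ran from 3963 to 7374 normalized counts, and each of these 5 genes was lowest in air control 4 or cannabis 1.

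Several genes used more than 1 site. Ttr, Clic6, Folr1 and Cga had 1 site each, Slc4a5 had 3, Prlr 7 and Enpp2 8. The leading Enpp2 site held 82.6% of the reads of the gene, with the lowest share in cannabis 1 (67.6%, exact binomial 95% interval 55.5 to 78.2) and the highest in cannabis 2 (88.2%, interval 83.6 to 91.9). The other 7 Enpp2 sites had 16 to 68 reads each over all libraries. Prlr was spread more evenly, as its 3 leading sites held 33.4%, 25.7% and 16.3% of its reads. The share of the leading Prlr site was highest in air control 4 (56%, interval 34.9 to 75.6) and cannabis 1 (53.5%, interval 37.7 to 68.8) and lowest in cannabis 2 (15.6%, interval 7.76 to 26.9). The second Prlr site was steadier, between 7.97 and 17.7 normalized counts. At Slc4a5 no site had reads in all 8 libraries, and the leading site had 0 reads in cannabis 5 and 19.9 normalized counts in air control 4. The even Prlr total thus summed sites that differed from library to library.

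**Figure D4:**
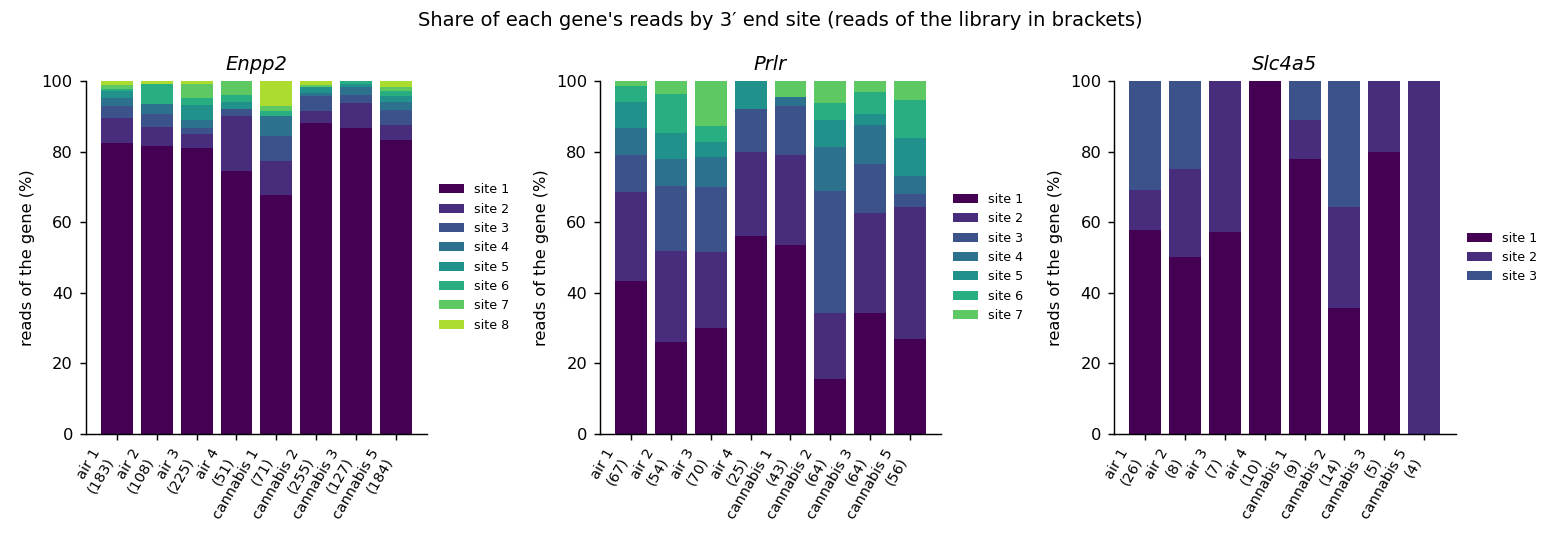
Percent of the reads of a gene (vertical axes) at each of its 3′ end sites, numbered by mean level, for Enpp2, Prlr and Slc4a5 in each library, with the reads of the gene in brackets. One site dominates Enpp2 in every library, while the leading Prlr site takes from 15.6% to 56% and Slc4a5 rests on 4 to 26 reads.

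The comparison of cannabis-exposed rats with air-treated controls asked whether the contribution of these genes differed between groups. No gene and no site passed the test. In limma fits on log2(normalized count + 1), 0 of the 7 gene totals had P under 0.01, against 0.278% of the 18003 gene symbols, and 0 of the 22 sites had P under 0.01, against 0.381% of the 98356 sites. With so few members, a count of 0 is near the background. At an unadjusted P under 0.05 the counts were also 0 and 0, and no gene and no site had groups that did not overlap. In edgeR and DESeq2 fits on the recovered reads, 0 of the 7 totals had P under 0.01 or under 0.05 (lowest P of 0.119 and 0.121, for Slc4a5). The median log2 difference, cannabis minus air, was 0.03 over the 7 totals and 0.05 over all gene symbols.

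The intervals of these differences were wide. For Cga the means were 362 ± 211 and 379 ± 241 normalized counts in cannabis-exposed and control rats (SD, n = 4), with a log2 difference of 0.03 (standard error 0.51, 95% interval -1.08 to 1.14, adjusted P = 0.999 in limma). This interval includes a doubling and a halving. The sign of the difference changed in edgeR, in DESeq2, under a block of replicate numbers, and without air control 3 (-0.51), cannabis 2 (-0.14) or cannabis 5 (-0.29). For Tshb the log2 difference was -0.16 (95% interval -2.11 to 1.79), and it was 0.88 without cannabis 3, 0.39 without air control 2 and 0.13 without air control 1.

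Enpp2 had the narrowest interval, at a log2 difference of -0.00 (95% interval -0.53 to 0.52), and Prlr followed at -0.06 (-0.61 to 0.48). The 4 low genes could not be placed closely. Ttr was higher in cannabis-exposed rats by 0.80 (95% interval -1.11 to 2.71), Folr1 by 0.80 (-0.82 to 2.42) and Clic6 by 0.52 (-0.72 to 1.77), and Slc4a5 differed by -0.76 (-1.90 to 0.37), the lowest P of the totals (0.169 in limma). Exact permutation of 4 against 4 libraries cannot go below P = 0.0286, and the lowest value for the 7 totals was 0.286. Without air control 4 the Folr1 difference was -0.04. Differences within these intervals were not detectable in these 8 libraries.

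**Figure D5:**
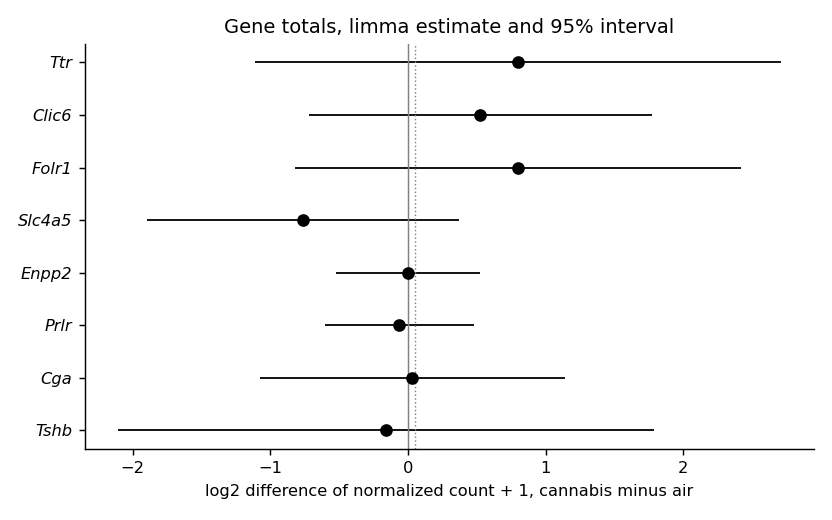
Log2 difference of normalized count + 1, cannabis minus air (horizontal axis), with 95% intervals from limma for the totals of 7 genes and Tshb, a solid line at 0 and a dotted line at the median of all gene symbols (0.05). Every interval includes 0, and the widest are those of Tshb and Ttr.

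Lists of other tissues and cells that a hypothalamic dissection can hold were read in the same fit. At P under 0.01 that fit called 0.278% of all 18003 gene symbols, so counts of 0 in short lists are near the background. At P under 0.01 in limma, none of the 24 further choroid plexus genes, 13 anterior pituitary genes, 7 genes of the intermediate and posterior lobe, 10 leptomeningeal genes, 9 ependymal genes, 12 oligodendrocyte genes and 2 blood genes with rows rose or fell, and their median log2 differences were -0.03, -0.08, 0.16, -0.12, 0.07, -0.15 and -0.14. Of the 9 genes of a pars tuberalis list, which includes Tshb and the melatonin receptor Mtnr1a (0 to 3.99 normalized counts), only Cck passed. Cck, a peptide of many brain neurons, was at 49.5 ± 7.29 in cannabis-exposed rats and 114 ± 23.7 in controls (SD, n = 4). Its log2 difference was -1.18 (limma, adjusted P = 0.999), and the list, whose most abundant genes were Tac1 (461 normalized counts) and Chga, had a median of 0.16. Cck is also a gene that the study picked in these libraries, as are Avp and Oxt, given next. Of the 18 hypothalamic genes, Avp and Oxt, the vasopressin and oxytocin genes, were higher in cannabis-exposed rats at P under 0.01 (log2 differences of 1.44 and 1.05, adjusted P = 0.999 for both in limma), and the list, led by Avp (3443 normalized counts) and Cartpt (1268), had a median of 0.40.

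Of the most abundant genes of these lists, Pomc, the precursor of melanocortins in the arcuate nucleus and the intermediate lobe, was at 78.5 normalized counts and Col25a1 at 33.9. Ptgds, a prostaglandin D synthase of meninges, oligodendrocytes and other cells, was at 2365 to 5711 and Slc13a3, a dicarboxylate transporter, at 76.8 to 225. The ependymal genes with the highest means were Tekt1 (78.8) and Rsph1 (68.1), both parts of motile cilia. Of the 6 blood symbols, 2 had rows. Hbb was at 0 to 4.65 and Alas2, the heme synthesis enzyme of red cell precursors, at 1.99 to 18.6 normalized counts. The other 4 symbols, among them Hba-a1 and Hba-a2, had no row, so the level of blood was not settled.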

How the data were processed

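WTTS-Seq libraries of 4 cannabis-exposed and 4 air-treated rats were analysed, 1 file per library. The authors quality-filtered with the FASTX Toolkit, removed the Ts at read starts, aligned to Rnor_6.0 (TMAP), grouped ends into sites, assigned genes with Cuffcompare and deposited a signal per site, the reads divided by a DESeq2 size factor. Every deposited value was a whole multiple of 1 step of its library (to within 2.4e-05 reads), from which reads were recovered. Site values were summed per gene symbol. Groups and replicate numbers came from the sample labels.

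Gene totals and sites were fitted with limma 3.58.1 (R 4.3.3), eBayes with trend, on log2(normalized count + 1), without covariates, with Benjamini-Hochberg adjustment over all features. Such differences understate changes of low genes. Single values had exact permutation tests. Thresholds of P follow the study. The 10 genes and all marker lists were chosen with earlier results of these data known. Named genes were the 10 members, the 2 highest and any passing gene of each list, and the 5 genes most like Ttr and Cga. Other genes were named after their values were seen. Some listed genes are not reported here. Alternatives were edgeR 4.0.16 and DESeq2 1.42.0 on recovered reads, pseudocounts of 0.5 and 5, a mean filter of 10, no trend, equal totals, a replicate block, each library left out, and air control 4 with cannabis 1 left out (added after seeing the data). Shared replicate numbers were not used as a pairing (the check is given with the alternatives). The limma and edgeR steps were tested on simulated data. Other steps ran in Python 3.11.15 with scipy 1.17.1, pandas 2.3.3 and numpy 2.4.6, and plots in matplotlib 3.10.9.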

Additional observations from a re-analysis of the deposited data

Results flagged for a closer look

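In air control 2, Prlr was at 64.6 normalized counts, while the other 3 controls were at 47.0, 49.0 and 49.6. The gap to the nearest control was 0.850 of the range of the group, above Dixon's 95% critical value for 4 samples. The value rests on 54 reads, with an exact Poisson 95% interval of 48.6 to 84.3. It overlaps the intervals of air controls 1, 3 and 4, which reach 62.2, 59.4 and 73.3. This group was 1 of 16 examined, and chance passes about 1 in 20.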

How the results depend on the processing

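No total of the 7 genes or of Tshb had P under 0.01 in any of the 133 alternative fits, whose lowest P was 0.0465, and 20 of them changed the sign of a difference. Of these, the replicate block gave -0.016 for Folr1 and -0.19 for Cga, edgeR gave -0.13 and DESeq2 -0.15 for Cga, and leaving out air control 4 and cannabis 1 gave 0.065 for Enpp2. With each library left out in turn, log2 differences ran from -0.51 to 0.41 for Cga, -0.71 to 0.88 for Tshb, -0.14 to 0.17 for Enpp2, -0.18 to 0.037 for Prlr, -0.043 to 1.26 for Folr1, 0.25 to 1.62 for Ttr, 0.30 to 0.93 for Clic6 and -1.15 to -0.48 for Slc4a5. The replicate block also moved Ttr from 0.80 to 0.18 and Slc4a5 from -0.76 to -0.23. The number of gene totals with P under 0.01, 50 in limma, was 24 with the replicate block, 29 with the mean filter, 98 without trend, 76 in DESeq2 and from 30 to 90 with a library left out. The number of sites, 375, was 229 with the replicate block, 44 with the mean filter, which leaves fewer sites to test, and from 227 to 617 with a library left out. Same-numbered libraries did not deviate together (r of -0.266, 0.0888 and -0.0834 in the 3 shared numbers), so the block rests on a number only. For the other values the cause was not tested. The coefficient of variation of Cga ran from 47.4% to 62.4% with a library left out. The Pearson r of Ttr and Folr1 fell from 0.674 to -0.0020 without the 2 libraries farthest from the median, air control 4 and cannabis 1. Ttr, Clic6, Folr1 and Slc4a5 had 34 to 89 reads in all, and counting error alone gives coefficients of variation of 30.8% to 51.6% for them.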
